A study of Mus musculus with 4 samples.

Results

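Genes of the unfolded protein response and the chaperones of the endoplasmic reticulum (ER) were followed in arthritic and nonarthritic mouse synovium, the tissue that lines the joint. The module is a fixed list of 31 genes, of which 30 were measured among 22180 genes, each through the brightest of its probe sets by mean signal. The other member, Pdia4, was not analysed here. Total RNA of 4 pools of mice was hybridised to 1 Affymetrix MoGene 2.0 ST array each. All mice were male C57BL/6J animals, 12 weeks old when treated. The 2 arthritic pools, of 10 mice each, came from mice given 150 microlitres of arthritogenic serum into the peritoneum on day 0, day 2 and day 7, and were taken on day 10, labelled as peak inflammation. The 2 nonarthritic pools, of 3 mice each, came from mice given the same volume of phosphate buffered saline at those times and are labelled day 0. K/BxN is named as the serum source strain on all 4 labels, which for the nonarthritic pools goes against the saline of the protocol. Day, pool size and disease cannot be told apart in this design. Serum transfer models the effector phase of antibody-driven arthritis in a host that makes no such antibodies itself. The comparison asks how each sensor branch of the ER stress response differs between inflamed and nonarthritic synovium.

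Proteins that are secreted or sit in membranes fold in the ER, where chaperones, disulphide isomerases and lectins hold them until they are mature. Misfolded protein is sent back to the cytosol for destruction, a process called ER-associated degradation. When unfolded protein builds up, 3 sensors of the ER membrane respond. ATF6 moves to the Golgi and is cut there to free a transcription factor, IRE1 (encoded by Ern1) splices the Xbp1 mRNA so that it encodes an active factor, and PERK (encoded by Eif2ak3) phosphorylates eIF2 alpha, which slows translation and favours that of ATF4. None of these activating steps is read by a gene-level array, so the values below are mRNA signals of the sensors and of genes downstream of them. The branches share targets, so placing each member in a single branch was a choice, and the counts by branch depend on it. The pathway is known in the joint for the ubiquitin ligase Syvn1 (synoviolin), which was named after synovial cells, and in general for cells that secrete much protein, such as plasma cells and fibroblasts that lay down collagen.

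Of the 30 measured members, 6 rose and 1 fell at an adjusted p under 0.05 (limma, Benjamini-Hochberg over 22180 genes). Pdia6, Pdia5, Hyou1, Derl3, Edem1 and Hspa5 rose, by 1.52-fold to 2.26-fold, and Dnajb9 fell, by 1.56-fold. The 6 rises are 20.0% of the measured members, where 8.72% of all genes rose, and the 1 fall is 3.33%, where 6.62% of all genes fell. The median log2 fold change, arthritic minus nonarthritic, was 0.27 over the members and 0.01 over all genes. Both arthritic pools lay above both nonarthritic pools in 19 members, or below them in 3, and the pools of the groups overlapped in 8. Over all genes both arthritic pools lay above in 30.2% and below in 26.1%, and the groups overlapped in 9677 of 22180. By branch, 3 of 12 measured ATF6 branch members rose, 3 of 12 IRE1 and XBP1 branch members rose and 1 fell, and 0 of 4 PERK branch members and 0 of 2 calnexin cycle members passed the test in limma. At an unadjusted limma p under 0.05, 11 of the 30 members were higher and 1 was lower, where 3640 of all 22180 genes were higher and 2823 lower. The PERK branch and the calnexin cycle had 0 members at that threshold too, but with 4 and 2 genes such a count says little. Whether the branches differ from each other was not tested.

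The calls rested on all 4 arrays. Without nonarthritic pool 1, Hyou1, Pdia5 and Pdia6 rose and 0 members fell. Without nonarthritic pool 2, arthritic pool 1 or arthritic pool 2, 0 of 30 members were called in limma, while 6, 9 and 7 members were higher and 1 was lower at an unadjusted p under 0.05. Calls over all genes dropped as well, from 3402 to 1221 and 353 without nonarthritic pools 1 and 2, and to 650 and 152 without arthritic pools 1 and 2. The groups of the 7 called members did not overlap, so leaving out 1 pool could not change their direction. Nonarthritic pool 1 read above nonarthritic pool 2 in 24 of the 30 members, by a median of 0.15 on the log2 scale, and arthritic pool 1 read above arthritic pool 2 in 10. Over all 22180 genes these counts were 11950, with a median of 0.03, and 10848. Nonarthritic pool 2 also differed among dim genes. The median log2 signal of 1105 olfactory receptor genes was 5.15 in that pool and 4.60 to 4.68 on the other arrays. The part of this pool in the rises was not tested.

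**Figure D1:**
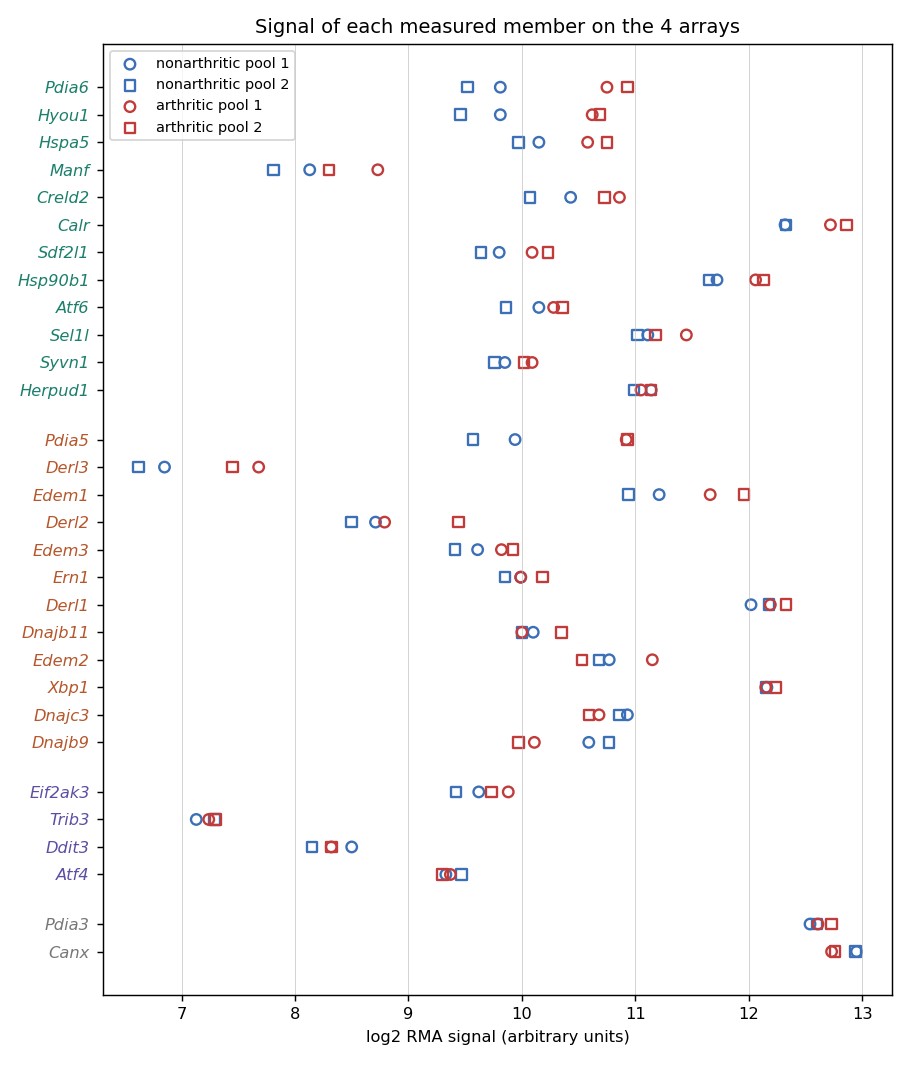
Log2 RMA signal (x axis) of each of the 30 measured members (y axis, coloured by branch: ATF6 green, IRE1 and XBP1 orange, PERK purple, calnexin cycle grey) in nonarthritic (blue) and arthritic (red) pools 1 (circles) and 2 (squares). In the ATF6 branch the red points lie to the right of the blue points for 11 of 12 genes, as for 6703 of all 22180 genes. In the PERK branch they overlap for 3 of 4, as for 9677 of all 22180, and the branches were not tested against each other.

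Several members carry the ER stress response element (ERSE) before their start, the site through which ATF6 and XBP1 are known to act together with the CCAAT-binding factor NF-Y. These sequences are shown because they recur among the chaperone genes. The members were listed as known genes of this response, so a high share with its known site is not an independent result. The shares of all windows below include the windows of the members. RefSeq promoter windows of build GRCm38.p6, from 250 bases before to 50 bases after the gene start, were found for 27 of the 31 members, and not for Atf6, Derl1, Hyou1 and Manf. The 250 bases before the start were searched on both strands. The exact ERSE, which is CCAAT, then 9 bases of any kind, then CCACG, stood before 9 of these 27 members, that is 33.3%, and in 0.113% of all 32851 promoter windows of the same length. With up to 1 mismatch in its fixed letters it stood before 14 members, against 1.32% of all windows. The exact sites read as follows, 5' to 3' in the CCAAT to CCACG direction, with the fixed letters in capitals.
Hspa5: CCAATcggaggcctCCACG
Pdia6: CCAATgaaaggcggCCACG
Derl3: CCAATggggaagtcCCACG
Creld2: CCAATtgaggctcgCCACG
Calr: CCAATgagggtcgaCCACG
Hsp90b1, 107 to 89 bases before the start: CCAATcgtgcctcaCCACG
Hsp90b1, 212 to 194 bases before the start: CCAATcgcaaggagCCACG
Syvn1: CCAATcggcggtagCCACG
Canx: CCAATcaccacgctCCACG
Dnajc3: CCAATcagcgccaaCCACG

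The 2 ERSE sites of Hsp90b1 run in opposite directions, and the sites of Calr, Creld2 and Derl3 run opposite to their gene. Herpud1 held the shorter ERSE-II, which is ATTGG, 1 base of any kind and CCACG and which stood in 0.0304% of all windows, and its site reads ATTGGgCCACG, 52 to 42 bases before the start. The UPRE letters TGACGTGG, an XBP1 and ATF6 site, stood before 0 of 27 members and in 0.563% of windows. The CARE letters TGATGNAA, read by ATF4 with C/EBP partners, stood before 1 member, Herpud1, and in 3.45% of windows. A match is a description of these letters only, and no binding was measured.

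The 250 bases before the start are given for Hspa5 and for the called members that hold one of these motifs, on the gene's strand with the motif in capitals. They lie at chr2:34771840-34772089 for Hspa5, chr12:17266339-17266588 for Pdia6 and chr10:75893148-75893397 for Derl3, all on the plus strand of GRCm38.p6. The motif of Derl3 appears as its reverse complement.
Hspa5 promoter: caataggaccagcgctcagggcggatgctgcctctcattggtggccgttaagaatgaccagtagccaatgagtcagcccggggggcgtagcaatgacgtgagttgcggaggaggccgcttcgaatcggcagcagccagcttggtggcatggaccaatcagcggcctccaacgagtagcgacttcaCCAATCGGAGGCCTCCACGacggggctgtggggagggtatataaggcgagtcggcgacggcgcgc
Pdia6 promoter: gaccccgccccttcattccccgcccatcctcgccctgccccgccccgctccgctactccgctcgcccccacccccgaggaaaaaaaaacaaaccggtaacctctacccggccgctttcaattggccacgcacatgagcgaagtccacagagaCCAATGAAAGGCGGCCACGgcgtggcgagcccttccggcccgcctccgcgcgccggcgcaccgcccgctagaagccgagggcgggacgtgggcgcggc
Derl3 promoter: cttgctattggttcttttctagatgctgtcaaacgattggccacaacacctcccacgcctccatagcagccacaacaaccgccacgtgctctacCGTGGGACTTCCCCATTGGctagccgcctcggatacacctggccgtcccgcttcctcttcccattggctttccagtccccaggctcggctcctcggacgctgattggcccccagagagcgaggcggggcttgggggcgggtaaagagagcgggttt

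The 9 members with an exact ERSE were split in their change. Of these, 3 (Pdia6, Derl3 and Hspa5) rose and 0 fell, with a median log2 fold change of 0.47. Of the 17 measured members with a promoter window but no exact ERSE, 2 rose and 1 fell, with a median of 0.13. Both arthritic pools lay above both nonarthritic pools in 7 of the 9, as in 30.2% of all genes. They lay below in Canx and Dnajc3, which were not called, as in 26.1% of all genes. Outside the module, 18 measured genes held the exact ERSE, and of these 0 rose and 1 fell in limma (at an unadjusted p under 0.05, 1 was higher and 2 were lower). Whether an exact ERSE goes with the change of a gene was not tested.

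**Figure D2:**
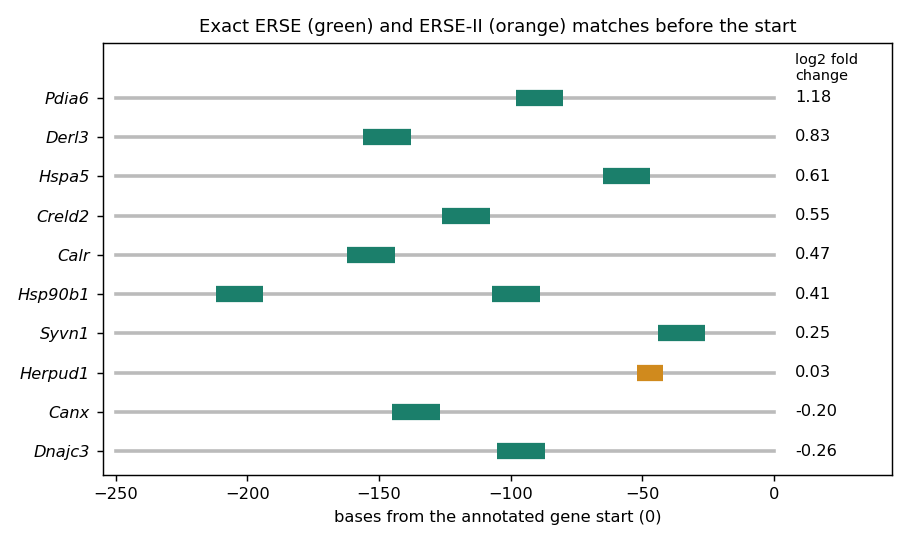
Positions of exact ERSE (green) and ERSE-II (orange) matches in the 250 bases before the annotated gene start (x axis, bases) for the 10 members that hold one (y axis), ordered by log2 fold change, printed at the right. The matches lie between 212 and 26 bases before the start, and the log2 fold changes run from 1.18 for Pdia6 to -0.26 for Dnajc3.

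In the ATF6 branch, 12 of 12 measured members had a positive log2 fold change, from 0.03 to 1.18 with a median of 0.45, and 3 passed the test. Among all 22180 genes, 11169 had a positive log2 fold change. Pdia6, a disulphide isomerase of the ER lumen that binds BiP, read 9.81 and 9.52 in nonarthritic pools 1 and 2 and 10.75 and 10.93 in arthritic pools 1 and 2 (log2 signal). It rose from 9.67 ± 0.21 to 10.84 ± 0.13 (mean ± SD, n = 2 pools), a log2 fold change of 1.18 ± 0.17 (SE; limma adjusted p = 0.00379). The arthritic pools were clear of the nonarthritic ones, with a gap wider than the distance between pools of a group. Over 13 other settings its log2 fold change ran from 1.03 to 1.32. Its promoter is the second of those printed above.

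Hyou1, a large HSP70-type chaperone of the ER that is also induced by low oxygen, read 9.81 and 9.46 in the nonarthritic pools and 10.62 and 10.69 in the arthritic pools. It rose by 1.02 ± 0.18 on the log2 scale (limma adjusted p = 0.00749). Hspa5 encodes BiP, the main HSP70 chaperone of the ER, which also holds the 3 sensors inactive. It read 10.15 and 9.97 in the nonarthritic pools and 10.58 and 10.75 in the arthritic pools, and rose by 0.61 ± 0.16 on the log2 scale (limma adjusted p = 0.0437). Its groups did not overlap, but the call was close to the threshold and ended with quantile normalization again (log2 fold change 0.53, limma adjusted p = 0.0515).

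A further 5 members of the ATF6 branch had an unadjusted p under 0.05 and did not pass after adjustment. Both arthritic pools read above both nonarthritic pools in all 5, as in 30.2% of all genes. These 5 were picked by p on the same arrays, so this adds no support. Calr, the calcium-binding lectin chaperone calreticulin, read 12.32 and 12.33 against 12.72 and 12.86 (nonarthritic, then arthritic pools 1 and 2; log2 fold change 0.47 ± 0.16 SE, limma adjusted p = 0.088). Hsp90b1, the ER form of HSP90 that folds Toll-like receptors and integrins, read 11.72 and 11.65 against 12.06 and 12.13 (0.41 ± 0.15, limma adjusted p = 0.12). The pools of a group stood close together for both genes, and the differences were small. Calr passed with a variance prior that follows signal (limma adjusted p = 0.0141) and after dim genes were left out (0.0493), and Hsp90b1 passed with the former (0.0357).

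Creld2, a small disulphide isomerase, read 10.43 and 10.07 against 10.86 and 10.73 (0.55 ± 0.18, limma adjusted p = 0.0832, and 0.0412 after dim genes were left out). Manf, a secreted protective factor of the ER, read 8.13 and 7.81 against 8.73 and 8.30 (0.55 ± 0.20, limma adjusted p = 0.117). Sdf2l1, a partner of BiP and its J proteins, read 9.80 and 9.64 against 10.09 and 10.23 (0.44 ± 0.16, limma adjusted p = 0.112). Creld2 and Manf were the members of these 5 in which nonarthritic pool 1 stood farthest above pool 2, by 0.36 and 0.32.

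The sensor gene Atf6 itself read 10.15 and 9.86 against 10.28 and 10.36 and was not called (0.32 ± 0.17, limma adjusted p = 0.27). The ligase Syvn1 and its scaffold Sel1l, which form the core of the retrotranslocation complex for misfolded ER proteins, were at 0.25 ± 0.16 and 0.25 ± 0.17 (limma adjusted p = 0.342 and 0.384). Syvn1 read 9.85 and 9.76 against 10.09 and 10.02, and Sel1l read 11.11 and 11.02 against 11.45 and 11.18. For these 3 genes the arthritic pools lay above the nonarthritic ones by little. Herpud1, an ER membrane protein that recruits the same complex, read 11.14 and 10.99 against 11.05 and 11.14, so its groups overlapped. Its log2 fold change of 0.03 ± 0.16 turned to -0.05 with quantile normalization again (limma adjusted p = 0.932 and 0.838).

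**Figure D3:**
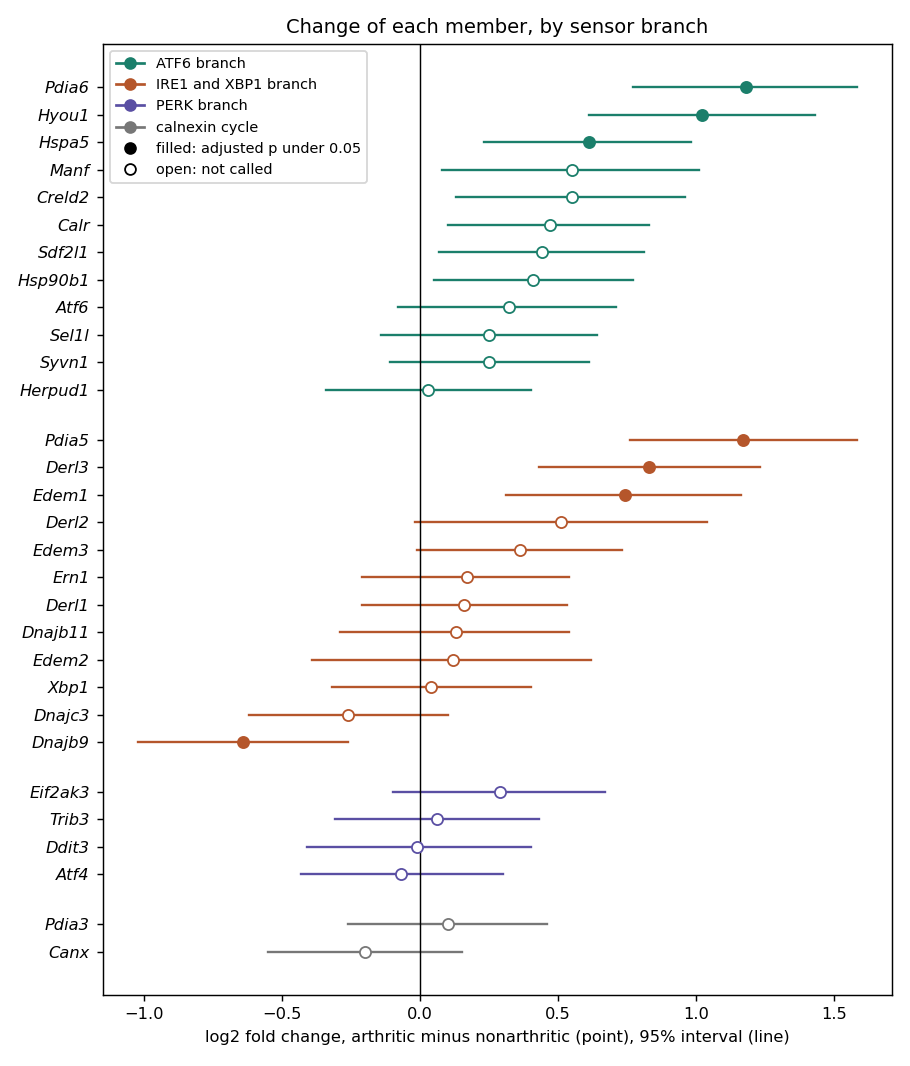
Log2 fold change (x axis, arthritic minus nonarthritic) of each measured member (y axis) with its 95% interval from limma (line, not adjusted for the number of genes), by branch in colour; filled points passed an adjusted p of 0.05. The 12 ATF6 branch points lie to the right of 0, from 0.03 for Herpud1 to 1.18 for Pdia6. The 4 PERK branch intervals all cross 0, as do those of Atf6, Herpud1, Sel1l and Syvn1 in the ATF6 branch.

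In the IRE1 and XBP1 branch the sensor and its factor were not called. Ern1 read 9.99 and 9.85 in the nonarthritic pools and 9.99 and 10.18 in the arthritic pools (0.17 ± 0.16, limma adjusted p = 0.573). Xbp1 read 12.16 and 12.15 against 12.15 and 12.24. Its log2 fold change was 0.04 ± 0.15, with a 95% interval from -0.32 to 0.40. That interval covers changes of total Xbp1 mRNA up to about the size seen for Hsp90b1, and the spliced form was not measured separately.

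Pdia5, a disulphide isomerase that is known to act on ATF6, read 9.94 and 9.57 in the nonarthritic pools and 10.92 and 10.93 in the arthritic pools. It rose by 1.17 ± 0.18 on the log2 scale, 2.25-fold (limma adjusted p = 0.00429). The arthritic pools agreed to 0.01 and lay well above both nonarthritic pools. No exact ERSE stood in the 250 bases before its start.

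Genes of ER-associated degradation in this branch moved unevenly. Derl3, a derlin of the retrotranslocation channel that is high in secretory cells, rose by 0.83 ± 0.17 on the log2 scale (limma adjusted p = 0.0159), reading 6.85 and 6.62 against 7.68 and 7.45. Derl3 and Trib3 were the 2 members with a mean signal below the median of all genes, so they were not tested when dim genes were left out. Its relatives were not called: Derl2 read 8.71 and 8.50 against 8.79 and 9.44 (0.51 ± 0.23, limma adjusted p = 0.187). Derl1 read 12.02 and 12.18 against 12.19 and 12.33 (0.16 ± 0.16, limma adjusted p = 0.582). The difference of Derl2 came mostly from arthritic pool 2, and its other probe set gave a difference of 0.15.

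Edem1, a mannosidase-like protein that marks misfolded glycoproteins, rose by 0.74 ± 0.18 on the log2 scale (limma adjusted p = 0.0317), reading 11.21 and 10.94 against 11.66 and 11.96. Its other probe set read 6.40 and 6.58 against 6.62 and 6.67, a difference of 0.16, and with the mean of its probe sets Edem1 was not called (0.45, limma adjusted p = 0.104). The call for Edem1 thus belongs to its brighter probe set. Edem3 read 9.61 and 9.41 against 9.82 and 9.92 (0.36 ± 0.16, limma adjusted p = 0.189). Edem2 read 10.77 and 10.68 against 11.15 and 10.53 (0.12 ± 0.22, limma adjusted p = 0.792), and its arthritic pools stood on both sides of the nonarthritic ones.

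Of the 3 J proteins in the module, which bring substrates to BiP and start its ATP cycle, 1 fell and the others were not called. Dnajb9, also called ERdj4, a target of XBP1 that holds IRE1 inactive through BiP, read 10.59 and 10.77 in the nonarthritic pools and 10.11 and 9.97 in the arthritic pools. It fell by 0.64 on the log2 scale (SE 0.16, limma adjusted p = 0.0342), with no overlap of the groups, and was the only measured member that fell. It was not called when arrays were centred on the median of all probe sets (-0.55, limma adjusted p = 0.0732). Dnajc3, which also restrains PERK, read 10.93 and 10.86 against 10.68 and 10.59 (-0.26 ± 0.16, limma adjusted p = 0.321). Dnajb11 read 10.10 and 10.00 against 10.00 and 10.35 (0.13 ± 0.18, limma adjusted p = 0.712), and its groups overlapped.

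In the PERK branch no member was called, and the arthritic and nonarthritic pools overlapped in 3 of 4, where 9677 of all 22180 genes overlapped. The kinase gene Eif2ak3 read 9.62 and 9.42 in the nonarthritic pools and 9.88 and 9.73 in the arthritic pools (0.29 ± 0.16, limma adjusted p = 0.305). Atf4, the factor translated when eIF2 alpha is phosphorylated, read 9.33 and 9.47 against 9.37 and 9.30. Its log2 fold change was -0.07, with a 95% interval from -0.43 to 0.30 and 0.03 when arrays were centred on the median of all probe sets. Since ATF4 is set by translation, its mRNA does not report its protein.

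Ddit3, which encodes the death-promoting factor CHOP, read 8.50 and 8.15 against 8.32 and 8.32. The nonarthritic pools stood on both sides of the arthritic ones, with a log2 fold change of -0.01 (95% interval -0.41 to 0.40; 0.09 when arrays were centred on all probe sets). Trib3, a pseudokinase induced by ATF4 and CHOP, read 7.13 and 7.29 against 7.24 and 7.30 (0.06, 95% interval -0.31 to 0.43). The upper bounds for Atf4, Ddit3 and Trib3, from 0.30 to 0.43, lie below the log2 fold change of Pdia6, 1.18, and above that of Eif2ak3.

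The calnexin cycle holds glycoproteins that carry a single glucose until they fold. Its membrane lectin Canx read 12.95 and 12.94 in the nonarthritic pools and 12.73 and 12.76 in the arthritic pools (-0.20 ± 0.15, limma adjusted p = 0.449). Pdia3, the disulphide isomerase that works with Canx and Calr, read 12.54 and 12.60 against 12.61 and 12.73 (0.10 ± 0.16, limma adjusted p = 0.739). Canx lay lower in both arthritic pools, and its lumenal relative Calr lay higher in both, but neither was called.

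The wider pathway was read from lists fixed with the module. Of 40 measured other ER folding and disulphide genes, 10 rose and 3 fell, with a median log2 fold change of 0.31. The largest changes among the called genes were in the prolyl isomerase Fkbp11 (1.43 ± 0.18, limma adjusted p = 0.0021), the glucosidase Mogs (1.35), the sulphydryl oxidase Qsox1 (1.33) and the glucosidase subunit Ganab (1.05). Without nonarthritic pool 1, 5 of these 40 rose, and 0 rose without nonarthritic pool 2, arthritic pool 1 or arthritic pool 2. Of 15 collagen chaperone and hydroxylase genes 9 rose and 2 fell (median 0.83). P4ha3, a subunit of collagen prolyl 4-hydroxylase, rose by 2.43 ± 0.18, P3h1 by 1.73 and P3h4 by 1.47 on the log2 scale, and the collagen glycosyltransferase Colgalt2 fell by 1.99 on that scale. Of the 15, 5 and 2 rose without nonarthritic pools 1 and 2, and 1 and 0 without arthritic pools 1 and 2.

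Genes that bring proteins into the ER and out of it also had rising members. Of 34 translocon, signal peptidase and oligosaccharyltransferase genes 8 rose and 0 fell (median 0.35; at an unadjusted p under 0.05, 14 were higher and 1 was lower). Ostc (1.07 ± 0.19), Sec61b (0.77), Ssr2 (0.71) and Ssr4 (0.65) had the largest changes among the called genes, and another probe set of Sec61b gave -0.17. Of 31 ER to Golgi coat and cargo receptor genes 10 rose and 1, Sar1b, fell (median 0.35), led by the cargo receptors Tmed3 (1.10 ± 0.18) and Tmed9 (1.09), the receptor Kdelr3 (0.95), which returns escaped chaperones to the ER, and Sec24d (0.92). Another probe set of Tmed9 gave 0.35. Leaving out any 1 pool left 0 rising translocon genes, and in the ER to Golgi list 2 rose without nonarthritic pool 1 and 0 without each other pool.

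By contrast in counts, of 35 measured genes of ER-associated degradation outside the module 0 rose and 1, the mannosidase Man1a (-0.83 ± 0.17, limma adjusted p = 0.017), fell. Their median was 0.08, and at an unadjusted limma p under 0.05, 6 were higher and 4 were lower. These shares are close to those over all 22180 genes, of which 3640 were higher and 2823 lower. The difference between these lists was not tested.

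Genes downstream of ATF4 split. Of 32 measured ATF4 target and eIF2 alpha feedback genes, 7 rose and 1 fell (median 0.16). Slc7a11, the cystine transporter, read 6.87 and 6.23 in the nonarthritic pools and 9.57 and 9.51 in the arthritic pools and rose by 2.99 ± 0.22 on the log2 scale (limma adjusted p = 0.00023). Its other probe set gave a difference of 1.13. Ddit4 (1.48) and Sesn2 (1.36), inhibitors of mTORC1 signalling, rose and the lipoprotein receptor Vldlr (-1.46) fell, and each also answers to other stress pathways. The others of the 7 that rose were Aldh18a1 (1.17), Cebpb (1.12), Mars1 (0.86) and Gars (0.58). The amino acid and feedback genes Asns (0.06 ± 0.16), Chac1 (-0.10 ± 0.16), Atf3 (-0.16 ± 0.16) and Ppp1r15a (-0.06 ± 0.17) were not called. These 4 were picked after their values were seen and do not stand for the list. Of the list, 4 and 1 rose without nonarthritic pools 1 and 2, and 2 and 0 without arthritic pools 1 and 2.

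Upstream, 0 of 5 measured genes of the other eIF2 alpha kinases and the translation brake were called (limma; at an unadjusted p under 0.05, 2 were higher and 1 was lower). Of 13 ER transmembrane transcription factor, protease and NF-Y genes, Atf6b, the paralogue of Atf6, rose by 0.90 ± 0.17 (limma adjusted p = 0.00958) and the NF-Y subunit Nfya by 0.59 ± 0.16 (limma adjusted p = 0.0436) on the log2 scale. Neither was called when any 1 pool was left out.

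**Figure D4:**
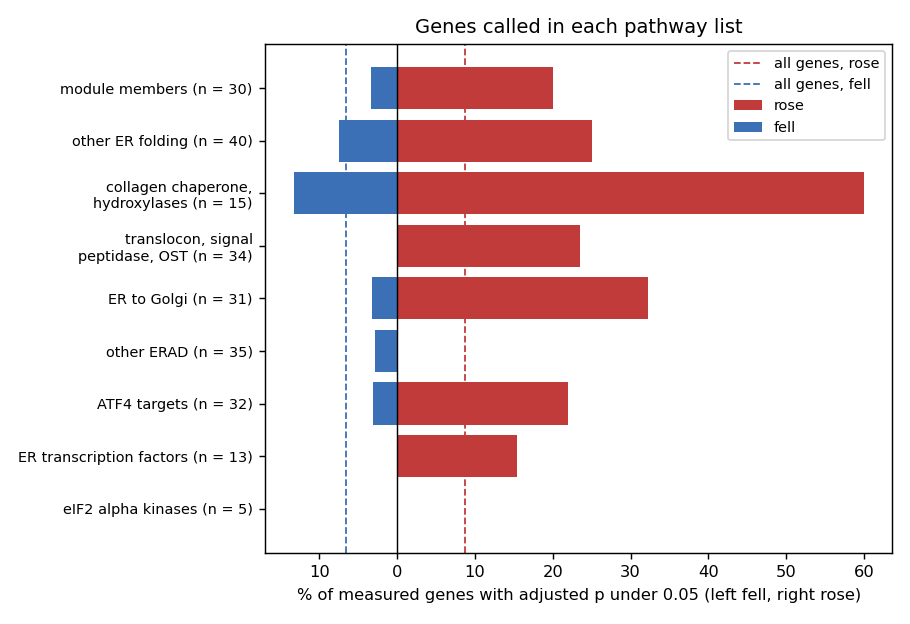
Percent of the measured genes of each list (y axis, n genes) that rose (red, right) or fell (blue, left) at a limma adjusted p under 0.05; dashed lines mark all 22180 genes, 8.72% rising and 6.62% falling. OST is oligosaccharyltransferase and ERAD is ER-associated degradation. The module stands at 20.0% rising, the collagen list at 60.0% and the other ERAD genes at 0.0%.

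Markers of several cell types moved with the groups, and the counts below stand beside 8.72% of all genes rising and 6.62% falling. Of 12 synovial lining and sublining markers, 6 rose and 3 fell. Cdh11 (1.70), Vcam1 (1.45), Pdpn (1.19), Col3a1 (0.80), Thy1 (0.68) and Col1a1 (0.59) rose, while the falls were in Cd55 (-1.44), Htra4 (-1.89) and Clic5 (-2.48). Lubricin, Prg4, which marks the lining, read 13.66 in both nonarthritic pools and 13.27 and 13.52 in the arthritic pools and was not called (limma adjusted p = 0.343). The summed signal of this list, on the log2 scale, was 15.74 and 15.60 in the nonarthritic and 15.77 and 15.79 in the arthritic pools, and later sums keep this order. All 10 skeletal muscle markers fell (sums 15.00 and 15.40 against 12.55 and 12.00), as did all 7 adipocyte markers (14.62 and 14.61 against 12.68 and 12.07). Of 9 neutrophil markers 7 rose and 0 fell (10.85 and 10.47 against 13.54 and 13.73).

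Of 8 macrophage markers, 2 rose and 2 fell, among them Vsig4 (-2.07), with sums of 14.65 and 14.54 against 14.53 and 14.54. Of 8 chondrocyte markers, 4 rose, among them Acan (2.03), and 1, Chad (-3.62), fell (14.39 and 14.19 against 13.91 and 13.68). Of 8 osteoblast markers, 1 rose and 3 fell (14.09 and 13.94 against 14.21 and 14.00). The 1 that rose was Col1a1, also a synovial marker above, which read 13.37 and 13.16 against 13.86 and 13.85 and made up most of this sum. The median log2 fold change of these 8 was -0.74, and 6 of them lay lower in both arthritic pools. Of 5 B cell markers, 1 rose and 2 fell, among them Ms4a1 (-1.74), with sums of 9.87 and 10.18 against 9.73 and 9.71. Of 11 measured plasma cell markers, 4 rose and 2 fell, with sums of 12.66 and 12.65 against 12.71 and 12.80. Most of this sum is Xbp1, which read 12.16 and 12.15 against 12.15 and 12.24. Fkbp11 (1.43), Sdc1 (1.16), Prdm1 (1.02) and Derl3 (0.83) rose, and Irf4 (-1.82) and Tnfrsf17 (-0.78) fell. Pou2af1 (-0.57), Jchain (-0.34), Mzb1 (-0.19), Xbp1 (0.04) and Tnfrsf13b (0.08) were not called. Xbp1 and Derl3 are also members of the module, and Fkbp11 is also in the list of other ER folding genes. In pooled tissue, fewer cells of a type and less RNA per cell cannot be told apart, and the part of these marker shifts in the changes of the members was not tested.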

How the data were processed

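The authors deposited log2 signals, 1 per probe set and array, and the submitters' processing notes name RMA (background correction, normalization between arrays and probe summary), Affymetrix Power Tools and Expression Console, with no version or setting. The unit was read as log2 from values of 2.89 to 14.27, with array medians of 6.96 to 7.15. No detection calls were used, and the number of arrays limits the precision. Of 41345 probe sets, the 23521 with exactly 1 gene symbol in the platform table were kept, and a gene's brightest probe set by mean signal stood for it. Arthritic and nonarthritic pools were compared with limma 3.58.1 in R 4.3.3 (lmFit and eBayes, 2-sided, no block; 2 residual and 5.98 prior degrees of freedom), and the fit was tested on simulated data. P-values rest on the spread between pools, partly shared across genes, and not on that between mice. The fit took this spread as equal in pools of 3 and of 10 mice. The members, lists and the rule for named genes (all measured members, and up to 4 called genes with the largest change in each other list) were chosen with earlier results of these data known. Alternatives changed the normalization, dim-gene filter, probe set, variance prior, pool block and arrays. Promoters came from RefSeq, GRCm38.p6.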

Additional observations from a re-analysis of the deposited data

How the results depend on the processing

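With 1 array left out, the calls over all genes ranged from 152 to 1221 (47 to 637 rises and 105 to 584 falls, against 3402, 1933 and 1469), those over the members from 0 to 3 (0 to 3 rises and 0 falls, against 7, 6 and 1); fewer arrays leave 1 residual degree of freedom. The same-numbered pools deviated together (correlation 0.18), but with 2 pairs and no label on what a number shares they were not taken as pairs. A replicate block for pool number gave 2243 calls, 1216 of them rises, and 4 called members, all rises, with 0 falls; Dnajb9, Edem1 and Hspa5 were no longer called. Centring arrays on the median of all probe sets, added after the data were seen, gave 0 member falls; it moved the median log2 fold change of all genes from 0.005 to 0.1 and the share of rises among calls from 56.8% to 67.1%. The cause of these differences was not tested. Among the members, signs turned only for genes that were not called: Atf4 (0.03) and Ddit3 (0.09) with that centring, and Herpud1 (-0.05) with quantile normalization again. With 1 array left out they also turned for Ddit3 (-0.18 to 0.17), Trib3 (-0.02 to 0.14), Atf4 (-0.14 to 0.01), Herpud1 (-0.05 to 0.11), Edem2 (-0.20 to 0.43), Dnajb11 (-0.05 to 0.30) and Xbp1 (-0.01 to 0.09). Leaving out 1 array can turn a sign only where the groups overlap, as they did in these genes.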

Other observations

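Genes that link ER stress to cell death changed in both directions. Of 14 measured, 4 rose and 2 fell, where 8.72% of all 22180 genes rose and 6.62% fell. Whether this list differs from all genes was not tested. The death receptor gene Tnfrsf10b (1.17 ± 0.21), the BH3-only gene Bcl2l11 (1.04 ± 0.18), the adaptor Traf2 (0.89) and Bak1 rose on the log2 scale. The survival gene Bcl2 (-1.56 ± 0.18, limma adjusted p = 0.00128) and Txnip (-0.90) fell on that scale. Another probe set of Bcl2 gave -0.03. Without nonarthritic pool 1, 2 rose and 1 fell, without arthritic pool 1, 0 rose and 1 fell, and without nonarthritic pool 2 or arthritic pool 2, 0 were called. The ER stress caspase gene Casp12 read 9.48 and 9.45 in the nonarthritic pools and 9.93 and 8.96 in the arthritic pools, which stood on both sides of them.

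Of 11 genes of the mitochondrial unfolded protein response, 1, the protease Htra2, rose by 0.88 ± 0.19 on the log2 scale (limma adjusted p = 0.0176) and 0 fell; Htra2 was not called when any 1 pool was left out. That 1 gene is 9.09% of the list, close to the 8.72% of all genes that rose. The chaperone genes Hspd1 (-0.03 ± 0.18) and Hspa9 (-0.14 ± 0.16) were not called. Of 9 reticulophagy receptors, which send ER to the lysosome, 0 were called in limma. At an unadjusted p under 0.05, 1 was higher, Retreg3 (0.50 ± 0.16), and 2 were lower, Retreg1 (-0.63 ± 0.20) and Ccpg1 (-0.56 ± 0.19). Among all 22180 genes, 3640 were higher and 2823 lower at that threshold.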
